A study of Mus musculus with 23 samples.

Results

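The aminoacyl-tRNA synthetases were followed in mouse gastrocnemius muscle as 36 genes, 20 for the cytosolic enzymes and 16 for the mitochondrial enzymes, chosen by enzyme name and compartment. They were read through the probes that the platform annotation gives to these genes. Of the 36, 35 had at least 1 probe (19 cytosolic and 16 mitochondrial) and 77 of the 45281 probes of the array belonged to them, 45 to the cytosolic and 32 to the mitochondrial genes. Dars, the aspartate enzyme of the cytosol, had none, so that its expression is not analysed here. A gene with several probes was read by its brightest, and 13 of the 77 probes were designed on accessions that are not a RefSeq transcript of the gene.

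An aminoacyl-tRNA synthetase joins an amino acid to the tRNAs that carry its anticodon and so sets how the genetic code is read. Mammals keep separate enzymes for translation in the cytosol and in the mitochondrion, and both sets are encoded in the nucleus, so that the mitochondrial set, whose symbols end in 2, has to be imported to make the few respiratory chain subunits that mitochondrial DNA encodes. Kars and Gars, for lysine and glycine, are exceptions that serve both compartments. Several cytosolic enzymes sit in a multisynthetase complex held by the scaffold proteins Aimp1, Aimp2 and Eef1e1, and many genes of the cytosolic set are known targets of the transcription factor Atf4 when amino acids run short.

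The study asked how copy number of the Hspa13-App interval of chromosome 16 affects muscle. Ts2Yah Dup mice (6 arrays; named Ts3Yah in the paper) carry a duplication of that interval on 1 chromosome and were compared with 5 diploid Ts2Yah WT littermates. Ms3Yah Del mice (6 arrays) carry its deletion on 1 chromosome and were compared with 6 diploid Ms3Yah WT littermates. All 4 groups share a C57BL/6J background and both rearrangements were engineered with Cre and loxP in embryonic stem cells. Each array holds 1 mouse. The duplication does not add a working copy of App, so that App stays diploid in Ts2Yah Dup, and the deletion removes a copy of it and of Hspa13. The mice were adult, and neither age nor sex is in the labels of these arrays. Littermate controls were matched for age and gender per the study's methods, but the Xist signal given below was not balanced between the Ts2Yah groups.

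No member lies in the interval. Yars2, the mitochondrial tyrosine enzyme, is the only one on chromosome 16, at chr16:16302965-16309640 (GRCm38.p6), far from Hspa13 (start 75755190) and App (end 85175255). As a check of the labels, genes of the interval were read. Atp5j lies inside the interval and encodes part of the mitochondrial ATP synthase. It had a mean signal of 25728 ± 1777 in Ts2Yah Dup and 19931 ± 1202 in Ts2Yah WT (SD, n = 6 and 5), and of 12927 ± 1011 in Ms3Yah Del and 19888 ± 1319 in Ms3Yah WT (SD, n = 6 each). These groups did not overlap in either line. Atp5j was higher in the duplication with limma adjusted p = 0.14, which does not pass 0.05. Atp5j and App were lower in the deletion with limma adjusted p = 0.0012 and 0.00049. In the deletion, that of Atp5j was 0.15 after median scaling.

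Between 16945 and 18669 probes were detected per array (deposited detection p below 0.05). Arrays of a group correlated at 0.983 to 0.995 after normalisation and no 2 were identical. Of the muscle fibre markers, 6 of 6 were detected on at least 12 of 23 arrays, against 0 of 2 lymphocyte markers. The Xist signal was high in 4 of 6 Ts2Yah Dup, 2 of 5 Ts2Yah WT, 3 of 6 Ms3Yah Del and 3 of 6 Ms3Yah WT mice, so that the Ts2Yah groups were not balanced by it. The first principal component, with 27.5% of the variance, separated the arrays of the lines from each other and not the genotypes. Nothing in the labels says whether mice came from separate litters, so the p-values measure the spread between these mice. A bulk sample does not tell fewer cells of a type from less RNA per cell.

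By the brightest probe, 17 of 19 cytosolic and 13 of 16 mitochondrial members were detected on at least 12 of 23 arrays. Those below that mark were Hars (8 of 23 arrays), Yars (4), Nars2 (4), Yars2 (3) and Hars2 (1), the enzymes for histidine, tyrosine and asparagine. All 5 are given with the others, but their signals lay near background. Mean signals of the brightest probes of detected members ran from 102 (Farsa) to 3264 (Gars) in the cytosolic set and from 115 (Aars2) to 1009 (Fars2) in the mitochondrial set. Signals of different probes are not on 1 scale, so these ranges do not rank the genes.

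Promoter sequences were looked at because several members share known regulators, and Gabpa, which encodes an ETS factor known to drive nuclear genes for mitochondrial proteins, lies in the rearranged interval. RefSeq promoters (GRCm38.p6, 250 bases before to 50 after the start that the promoter entry uses) matched 27 members, 13 cytosolic (Dars among them) and 14 mitochondrial. The motifs below were searched on both strands. TGATGNAA, the composite element of C/EBP and ATF proteins that Atf4 binds, was found in 5 of 13 cytosolic genes and 0 of 14 mitochondrial genes, against 3.97% of 32851 mouse promoters. CCGGAAG, the ETS core, was found in 5 of 13 cytosolic and 4 of 14 mitochondrial genes, against 8.86% of all promoters. The NRF1 motif was found in 3 of 13 and 2 of 14, against 4.60%. No match overlapped another motif. The windows below show matches of the composite element in 4 of the cytosolic genes, those for glycine, isoleucine, threonine and tyrosine, 30 bases each along the gene's strand, with the match in capitals.
Gars, chr6:55037960-55037989, plus strand: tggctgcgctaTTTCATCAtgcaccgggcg
Iars, chr13:49682126-49682155, plus strand: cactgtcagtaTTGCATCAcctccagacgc
Tars, chr15:11399655-11399684, minus strand: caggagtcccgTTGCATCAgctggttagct
Yars, chr4:129189895-129189924, plus strand: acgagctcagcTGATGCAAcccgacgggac
The first base of the match lay at -30 in Gars, 7 in Iars, -15 in Tars and 3 in Yars, where 0 is the start of the promoter entry. In Yars that start lies inside the annotated gene, which begins at 129189734. In 3 of these 4 windows the element runs on the opposite strand, so that its reverse complement is printed, and in Yars it runs along the gene.

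**Figure D1:**
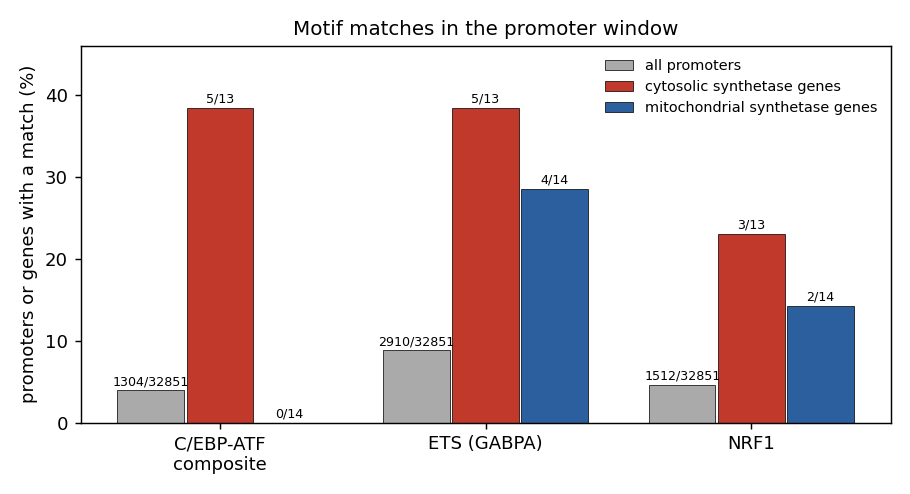
Share of promoters with a match (y axis, %) for 3 motifs, in all 32851 mouse promoters (grey), in 13 cytosolic (red) and 14 mitochondrial (blue) synthetase genes, with counts over the bars. The composite C/EBP-ATF element was found in 5 cytosolic and 0 mitochondrial genes.

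The serine enzymes are shown in full upstream of their starts because Sars2, the mitochondrial one, is the member on which most of the results below turn, and Sars is its cytosolic counterpart. Each stretch has 250 bases and ends at the base before the start of the promoter entry. For Sars2 the annotated gene begins at 28741957, inside the stretch. The ETS core is in capitals, in both on the opposite strand (CTTCCGG).
Sars2, chr7:28741718-28741967, plus strand: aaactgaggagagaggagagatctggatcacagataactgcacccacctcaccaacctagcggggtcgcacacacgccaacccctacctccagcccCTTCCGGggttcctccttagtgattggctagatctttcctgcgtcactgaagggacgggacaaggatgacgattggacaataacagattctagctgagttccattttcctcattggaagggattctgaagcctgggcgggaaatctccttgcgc
Sars, chr3:108445260-108445509, minus strand: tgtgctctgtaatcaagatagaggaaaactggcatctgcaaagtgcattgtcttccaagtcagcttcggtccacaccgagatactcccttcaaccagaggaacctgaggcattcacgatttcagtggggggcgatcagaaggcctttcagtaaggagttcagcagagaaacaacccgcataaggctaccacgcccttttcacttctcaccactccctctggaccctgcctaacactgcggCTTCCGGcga
The core starts at -154 in Sars2 and at -10 in Sars. The other members with it were Farsa, Gars, Kars and Mars of the cytosolic set and Cars2, Mars2 and Rars2 of the mitochondrial set. Gabpa had a mean signal of 106.0 ± 8.9 in Ts2Yah Dup and 101.5 ± 4.3 in Ts2Yah WT, and of 93.6 ± 3.6 in Ms3Yah Del and 97.1 ± 3.3 in Ms3Yah WT (SD, n = 6, 5, 6 and 6). The values overlapped in both lines, with limma adjusted p = 0.99 in the Ms3Yah line. These signals lay close to the filter of 89.8, which limits what this probe can show. The paper reported from quantitative PCR that Gabpa was raised in the trisomy and reduced in the monosomy.

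The first comparison asked which synthetases differed between Ts2Yah Dup mice and their diploid littermates. No member passed the adjusted threshold of 0.05 (limma, two-sided, Benjamini-Hochberg over 43917 expressed probes), where 2 probes did, 0.00455% of those tested. In the cytosolic set, 8 genes lay above and 11 below 0, with a median log2 difference of -0.02, beside -0.001 over all 18813 genes. None had an unadjusted p under 0.05 in either direction, beside 2.74% of probes higher and 2.81% lower. Of 10019 genes detected in either group, 423 were higher and 493 lower at that p. The detected cytosolic members spanned log2 differences from -0.13 (Aars, for alanine) to 0.15 (Cars, for cysteine), with standard errors of 0.03 to 0.09. A p that misses the threshold does not show that levels were the same.

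Cars had the smallest p of the cytosolic set. Its signals in the 5 Ts2Yah WT mice were 131.7, 130.1, 99.8, 105.9 and 119.4, and in the 6 Ts2Yah Dup mice they ran from 115.9 over a median of 130.6 to 150.4. The groups overlapped, with a log2 difference of 0.15 ± 0.08 (SE), exact permutation p = 0.149 over 462 regroupings and limma adjusted p = 0.91. The brightest Cars probe was designed on an accession outside RefSeq's transcripts of the gene, and both other Cars probes were detected on 3 and 1 arrays. Rars, for arginine, read 681.5, 548.3, 634.0, 620.3 and 619.3 in Ts2Yah WT and from 492.9 over 581.6 to 636.9 in Ts2Yah Dup. Lars, for leucine, read 1506, 1939, 1672, 1896 and 1786 in Ts2Yah WT and from 1440 over 1600 to 1862 in Ts2Yah Dup. Both sets of values overlapped, at log2 differences of -0.11 ± 0.07 for Rars and -0.12 ± 0.08 for Lars. A second detected probe of Rars lay on the other side of 0 (log2 0.04).

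In the mitochondrial set, 12 of 16 genes were below 0 and 4 above in Ts2Yah Dup, with a median log2 difference of -0.07, and among the 13 detected members the split was 10 below and 3 above. Of all genes, 49.3% lay above 0. A single member, Sars2, had an unadjusted p under 0.05, on the lower side, beside 2.81% of probes and 493 of 10019 detected genes. Sars2 signals in the 5 Ts2Yah WT mice were 194.5, 167.4, 187.4, 167.1 and 184.8. In the 6 Ts2Yah Dup mice they ran from 138.5 over a median of 161.2 to 166.7. Every Ts2Yah Dup mouse was below every diploid littermate, although the lowest diploid mouse (167.1) was close to the highest trisomic mouse (166.7). The means were 158.2 ± 10.3 and 180.3 ± 12.4 (SD, n = 6 and 5), a ratio of 0.878, with a log2 difference of -0.19 ± 0.06 (SE). The exact permutation p was 0.00216, the smallest that 462 regroupings can give, but the limma p of 0.0051 became 0.80 after adjustment over all probes. Sars2 has 1 probe on the array, so no second probe reads it. It was the only 1 of 35 members whose groups did not overlap in this line. How many of all genes separate in this way was not counted for any comparison, so this separation has no background beside it. Sars2 was also the member with the smallest limma p of the 35, and its exact permutation p is not adjusted for that choice.

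The next detected members by p were Cars2 and Tars2, the mitochondrial enzymes for cysteine and threonine. Cars2 read 282.8, 293.3, 237.2, 267.0 and 286.3 in Ts2Yah WT and from 243.3 over 257.5 to 262.2 in Ts2Yah Dup, at a log2 difference of -0.09 ± 0.05. Tars2 read 190.9, 191.3, 227.4, 201.3 and 194.2 in Ts2Yah WT and from 176.3 over 192.0 to 205.6 in Ts2Yah Dup, at -0.08 ± 0.05. Both overlapped between groups and had adjusted p = 0.91 and 0.92. A second, dimmer probe of Cars2 that was detected on all arrays gave log2 -0.10 with an unadjusted limma p of 0.025. Unlike the brightest, it is not assigned to a RefSeq transcript of the gene. The members above 0 were Lars2 (0.14), Ears2 (0.10), Wars2 (0.07) and the dim Hars2 (0.03), for leucine, glutamate, tryptophan and histidine, and none of these differences passed the test. Of the members with several detected probes, 4 of 5 mitochondrial and 7 of 11 cytosolic ones had all of them on 1 side of 0 in this line, and 2 of 5 and 6 of 11 in the Ms3Yah line. Endothelial markers lay lower in Ts2Yah Dup as well, 4 of 4 below 0 with summed signals of 708 to 1108 against 952 to 1214 in Ts2Yah WT. Kdr, 1 of these markers, was not detected on at least 12 of 23 arrays. Macrophage markers lay 4 of 4 above 0, at a median of 0.14. Muscle fibre markers lay 4 above and 2 below 0, with summed signals of 187824 to 198403 in Ts2Yah Dup against 178982 to 187632 in Ts2Yah WT, which did not overlap. Mbp, the only Schwann cell marker with a probe, lay at log2 -0.43. In Ms3Yah Del, adipocyte markers lay 3 of 3 below 0, and 1 fibroblast marker was higher at an unadjusted limma p under 0.05. The part of these cells in the values of the members was not tested.

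The second comparison asked the same of Ms3Yah Del mice. Again no member passed the adjusted threshold, where 8 of 44363 expressed probes did, 0.018%. Of the cytosolic members 10 were above and 9 below 0, at a median of 0.001 beside -0.001 over all genes, and none had an unadjusted p under 0.05. Of the mitochondrial members 10 were above and 6 below 0, at a median of 0.02, or 8 and 5 at a median of 0.07 among those detected. In the mitochondrial set, 2 members had an unadjusted p under 0.05 on the higher side, beside 2.71% of probes, and 1 on the lower side, beside 2.46%. Of 10387 genes detected in either group, 420 were higher and 412 lower at that p. The lower member was Nars2, for asparagine, at log2 -0.09 with a signal near background.

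Wars2, which charges the mitochondrial tryptophan tRNA, read from 135.0 over 136.8 to 154.7 in Ms3Yah WT and from 137.0 over 156.3 to 160.4 in Ms3Yah Del. The groups overlapped through 1 mouse of each, since the remaining Ms3Yah WT mice read 138.5 or less and the remaining Ms3Yah Del mice 154.6 or more. The log2 difference was 0.14 ± 0.05, with exact permutation p = 0.0195 over 924 regroupings and limma adjusted p = 0.84. Its other 3 probes were detected on 3 to 7 arrays and lay on both sides of 0. Fars2, for phenylalanine, read from 894.4 over 1033 to 1165 in Ms3Yah WT and from 1045 over 1147 to 1223 in Ms3Yah Del. These overlapped, at 0.15 ± 0.06 with exact permutation p = 0.0606 and limma adjusted p = 0.97. Sars2 read from 127.8 over 151.2 to 155.5 in Ms3Yah WT and from 137.8 over 157.7 to 172.1 in Ms3Yah Del, at 0.10 ± 0.06 with adjusted p = 0.99. The groups overlapped there, too.

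Lars2, the mitochondrial leucine enzyme, had the largest mitochondrial difference in this line and also the largest standard error, at 0.32 ± 0.20. Its signals ran from 215.4 over 232.7 to 389.1 in Ms3Yah WT and from 217.9 over 381.9 to 414.9 in Ms3Yah Del, so that both groups held low and high mice and overlapped almost over their whole range. In the cytosolic set the smallest p values belonged to Rars, Tars and Sars. Rars read from 516.9 over 565.2 to 653.2 in Ms3Yah WT and from 473.1 over 513.7 to 571.3 in Ms3Yah Del, at -0.12 ± 0.06. Tars, for threonine, read from 114.5 over 131.6 to 136.4 and from 110.3 over 115.5 to 144.1, at -0.10 ± 0.07. Sars read from 262.6 over 290.7 to 370.5 and from 280.2 over 322.2 to 366.1, at 0.11 ± 0.09. All 3 overlapped between groups and had adjusted p of 0.98 or 0.99. A second probe of Lars, detected on all arrays, gave -0.20 with an unadjusted p of 0.040 in Ms3Yah Del, against 0.01 for the brightest.

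**Figure D2:**
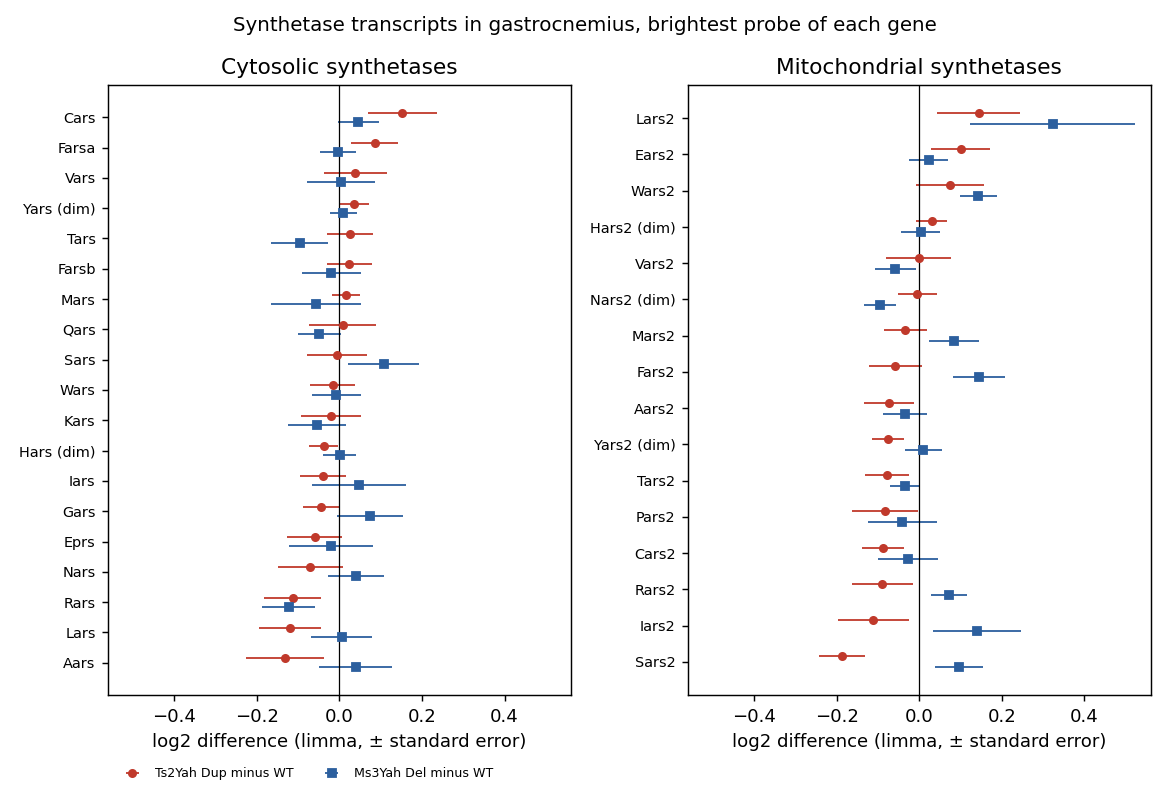
Log2 difference from diploid littermates (x axis, ± standard error) of each cytosolic and mitochondrial synthetase (y axis, brightest probe; dim marks genes detected on under 12 of 23 arrays) in Ts2Yah Dup (red circles) and Ms3Yah Del (blue squares). In Ts2Yah Dup, 12 of 16 mitochondrial and 11 of 19 cytosolic genes lie left of 0, and Sars2 is lowest at -0.19.

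The 2 lines were then compared with each other, as the difference between the trisomic and the monosomic effect in 1 fit of all 4 groups. No member passed the adjusted threshold, where 12 of 45139 probes did, 0.0266%. Of the mitochondrial members 12 had a lower difference in the trisomic than in the monosomic line and 4 a higher one, at a median of -0.06, beside 0.001 over all genes. Of the cytosolic members 9 were lower and 10 higher, at a median of 0.01. Of the mitochondrial members 2 had an unadjusted limma p under 0.05, both lower, beside 3.03% of probes lower and 2.68% higher. Of 10749 genes detected in any group, 492 were lower and 402 higher at that p. The 2 members were Sars2 (-0.28 ± 0.08, SE) and Fars2 (-0.20 ± 0.09), with limma adjusted p of 0.49 and 0.86. Rars2, for arginine, followed at -0.16 ± 0.09. It read 418.9, 494.2, 381.6, 410.7 and 486.8 in Ts2Yah WT and from 373.1 over 413.9 to 452.3 in Ts2Yah Dup, and from 372.7 over 416.0 to 426.6 in Ms3Yah WT and 391.4 over 429.2 to 456.0 in Ms3Yah Del, with overlap in both lines. No cytosolic member had an unadjusted p under 0.05, and the smallest belonged to Tars (0.12 ± 0.09), Aars (-0.17 ± 0.14) and Gars (-0.12 ± 0.10), each with adjusted p = 0.95. Aars read 1034, 924.8, 991.8, 1233 and 1111 in Ts2Yah WT and from 741.3 over 999.3 to 1087 in Ts2Yah Dup, and from 871.7 over 1014 to 1231 in Ms3Yah WT and 898.4 over 1116 to 1148 in Ms3Yah Del. Gars read 3203, 3220, 3378, 3462 and 3430 in Ts2Yah WT and from 3023 over 3198 to 3520 in Ts2Yah Dup, and from 2691 over 3194 to 3628 in Ms3Yah WT and 3148 over 3209 to 3744 in Ms3Yah Del. Groups overlapped in both lines for both genes, and so did Tars, whose Ts2Yah WT mice read 135.1, 125.4, 142.1, 141.6 and 126.8 against 121.5 over 136.0 to 149.1 in Ts2Yah Dup.

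None of the members not yet described passed the test. Among cytosolic genes, Eprs (a fused enzyme for glutamate and proline), Kars, Mars (methionine), Nars (asparagine), Qars (glutamine) and Wars (tryptophan) had log2 differences of -0.06, -0.02, 0.02, -0.07, 0.01 and -0.02 in Ts2Yah Dup and of -0.02, -0.05, -0.06, 0.04, -0.05 and -0.01 in Ms3Yah Del. Among mitochondrial genes, Iars2 (isoleucine) had -0.11 ± 0.09 and 0.14 ± 0.11, with a difference between the lines of -0.25 ± 0.15 that was larger than that of Fars2 but had an adjusted p of 0.92. Mars2 had -0.03 and 0.08, Pars2 (proline) -0.08 and -0.04, and the dim Yars2 -0.08 and 0.01. None had an unadjusted p under 0.05 in either line. Farsa and Aars2, the dimmest detected probes of their sets, overlapped between the groups of each line. Farsa read 98.1, 105.0, 94.8, 94.4 and 91.5 in Ts2Yah WT, 92.2 over 102.6 to 114.0 in Ts2Yah Dup, 95.3 over 104.9 to 112.7 in Ms3Yah WT and 96.7 over 105.5 to 108.4 in Ms3Yah Del. Aars2 read 120.8, 114.2, 130.2, 112.5 and 115.0, then 100.8 over 111.2 to 129.5, 106.7 over 113.9 to 125.7 and 103.5 over 112.5 to 125.0 in the same order of groups.

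Read line by line, 6 mitochondrial genes were below 0 in Ts2Yah Dup and above 0 in Ms3Yah Del, 0 had the opposite arrangement and 10 had the same sign in both. Among cytosolic genes the counts were 7, 5 and 7. How all genes split over these arrangements was not counted, so the counts have no background beside them and cannot be read as a trait of either set. The 2 lines share no mice, but they share the probes and 1 normalisation over all arrays. Class medians per mouse over detected members did not separate genotypes: the mitochondrial median ran from log2 7.68 to 8.01 in Ts2Yah Dup and 7.60 to 7.89 in Ts2Yah WT, and from 7.68 to 7.86 in Ms3Yah Del and 7.75 to 7.85 in Ms3Yah WT. The cytosolic median ran from 9.08 to 9.31 and 9.10 to 9.37 in the Ts2Yah line, and from 8.89 to 9.29 and 8.99 to 9.21 in the Ms3Yah line. All 4 pairs of ranges overlapped. The cytosolic minus the mitochondrial median of a mouse had means of 1.43 ± 0.15 in Ts2Yah Dup and 1.49 ± 0.15 in Ts2Yah WT (SD, n = 6 and 5). The means were 1.29 ± 0.14 in Ms3Yah Del and 1.29 ± 0.06 in Ms3Yah WT (SD, n = 6 each). By this measure the mitochondrial set was not lowered against the cytosolic set in Ts2Yah Dup, nor raised against it in Ms3Yah Del.

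**Figure D3:**
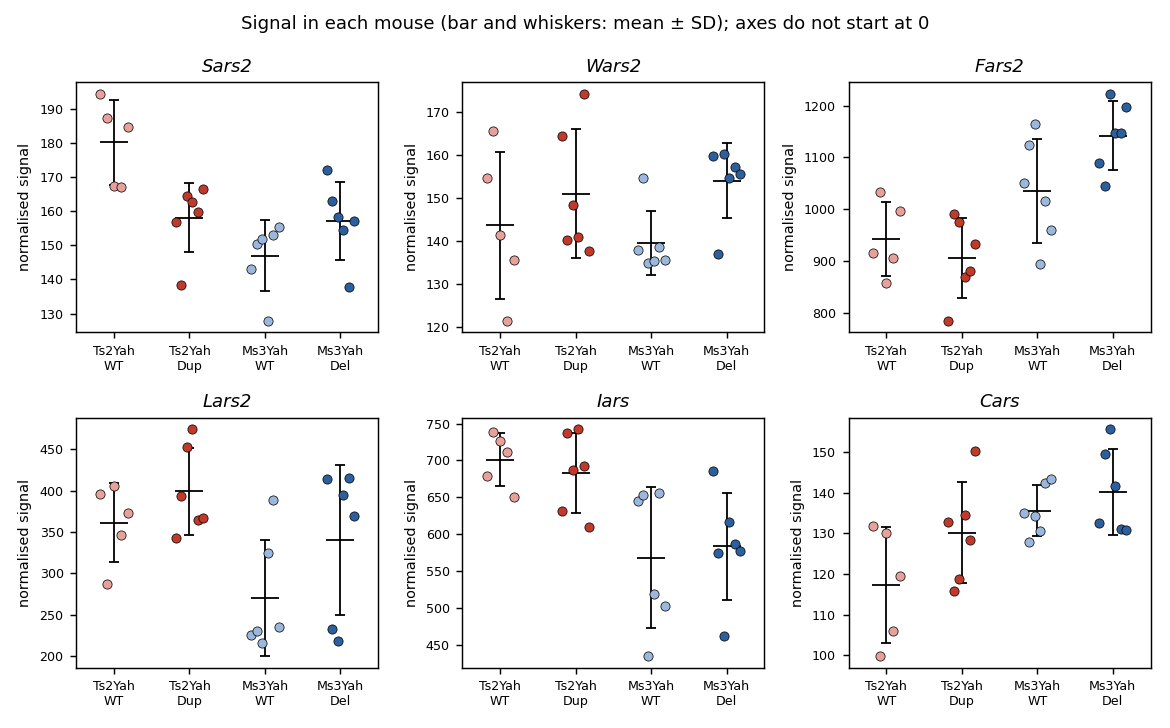
Normalised signal (y axis, linear, not starting at 0) of 6 members in each mouse of the 4 groups, with mean ± SD. Sars2 is higher in all 5 Ts2Yah WT mice than in every mouse of Ts2Yah Dup and Ms3Yah WT, while Wars2, Fars2, Lars2, Iars and Cars overlap between each aneuploid group and its littermates.

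The cytosolic and the mitochondrial enzyme for the same amino acid were set side by side. Of 15 pairs (the cytosolic phenylalanine enzyme has an alpha subunit, Farsa, and a beta subunit, Farsb, both set against Fars2), the mitochondrial gene had the lower log2 difference in 9 in Ts2Yah Dup and the higher in 10 in Ms3Yah Del. The serine pair had -0.01 for Sars and -0.19 for Sars2 in Ts2Yah Dup, and 0.11 and 0.10 in Ms3Yah Del. The phenylalanine pair had 0.09 for Farsa, 0.02 for Farsb and -0.06 for Fars2 in the first line, and -0.004, -0.02 and 0.15 in the second. The leucine pair ran the other way in Ts2Yah Dup, with -0.12 for Lars and 0.14 for Lars2. The valine pair had 0.04 for Vars and -0.002 for Vars2 in Ts2Yah Dup and 0.004 and -0.06 in Ms3Yah Del. Differences between pair members were not tested, and the counts of pairs have no background from other genes beside them.

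Genes that work beside the synthetases were read in the same fits. Of the 4 mitochondrial elongation factors, which bring charged tRNAs to the mitochondrial ribosome and move it along the message, 3 were below 0 in Ts2Yah Dup (median -0.11) and 4 above 0 in Ms3Yah Del (median 0.11). Gfm1, the mitochondrial translocase, read 226.6 over 269.6 to 326.6 in Ts2Yah Dup against 288.0 over 302.8 to 335.3 in Ts2Yah WT, at -0.19 ± 0.08, and 221.0 over 297.2 to 321.6 in Ms3Yah Del against 225.5 over 247.1 to 260.7 in Ms3Yah WT, at 0.19 ± 0.08. The groups overlapped in both lines, and the adjusted p were 0.88 and 0.97. The difference between lines was -0.38 ± 0.12 for Gfm1 and -0.26 ± 0.10 for Tufm, which delivers charged tRNA, with adjusted p = 0.56 and 0.76. Qrsl1, a subunit of the amidotransferase that makes mitochondrial glutamine tRNA without a glutamine enzyme, had -0.16 ± 0.07 in Ts2Yah Dup, 0.15 ± 0.09 in Ms3Yah Del and a difference of -0.31 ± 0.12 with adjusted p = 0.76. No gene of the mitochondrial amidotransferase and formyltransferase, elongation factor or tRNA processing lists passed the adjusted threshold in either line.

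The cytosolic elongation factors (6 genes) had 3 genes on each side of 0 in Ts2Yah Dup and 1 above and 5 below in Ms3Yah Del, with no unadjusted p under 0.05. In the amino acid response list of 12 genes, 2 had an unadjusted p under 0.05 in Ts2Yah Dup. Both were lower, beside 2.81% of probes and 493 of 10019 detected genes. These were Shmt2 (-0.12 ± 0.04) and Mthfd2 (-0.17 ± 0.08), enzymes of mitochondrial one-carbon metabolism, at adjusted p = 0.85 and 0.90. In Ms3Yah Del 1 gene of the list did, Atf4 (-0.10 ± 0.04, adjusted p = 0.97), whose element was printed above. The 4 cytosolic synthetase genes whose windows were printed had log2 differences of -0.04 (Gars), -0.04 (Iars), 0.03 (Tars) and 0.03 (Yars) in Ts2Yah Dup and of 0.07, 0.05, -0.10 and 0.01 in Ms3Yah Del, none past the test. The scaffold genes Aimp1, Aimp2 and Eef1e1 had 0.04, -0.08 and 0.06 in Ts2Yah Dup and -0.03, 0.23 and 0.03 in Ms3Yah Del, with Aimp2 at an unadjusted limma p of 0.044. Among proofreading enzymes and relatives, Dtd2, which removes wrongly attached residues from tRNA, had 0.16 ± 0.07 and -0.16 ± 0.09, with adjusted p of 0.89 and 0.98.

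**Figure D4:**
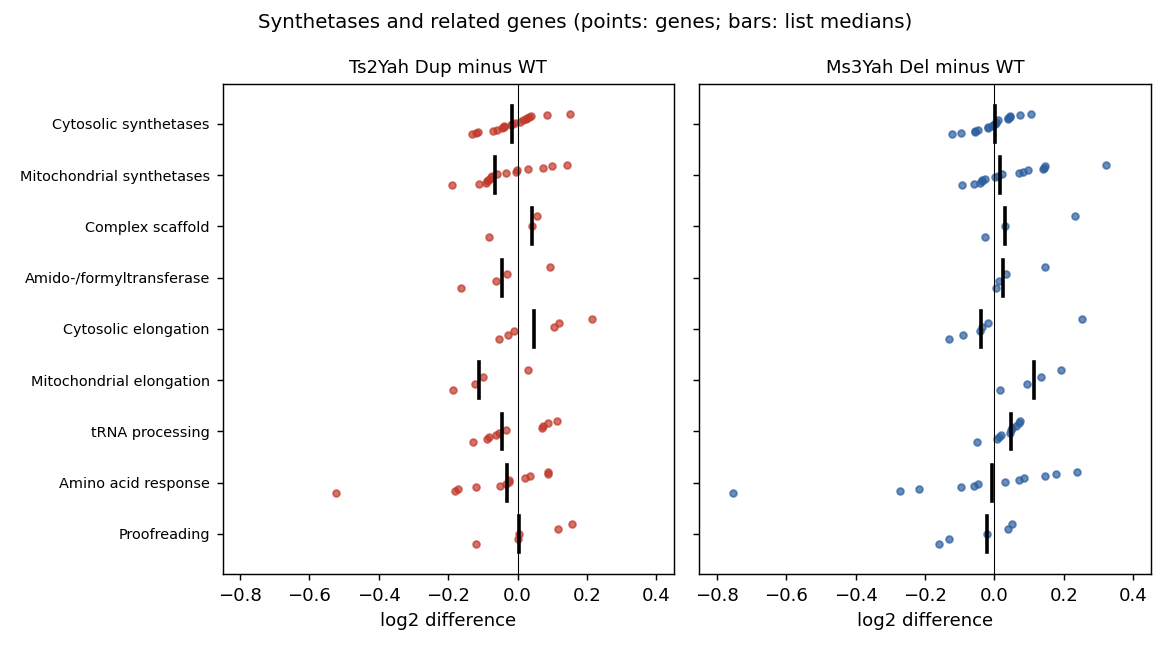
Log2 difference (x axis) of every gene (points) of both synthetase sets and 7 related lists in Ts2Yah Dup (left, red) and Ms3Yah Del (right, blue), with list medians as bars. The mitochondrial elongation factors have medians of -0.11 and 0.11, and the cytosolic synthetases have medians near 0 in both.

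The last comparison was between the diploid mice of the lines, which have the same genotype at the interval. Line, cohort, age and hybridisation cannot be told apart here. In this comparison 1219 of 45139 probes passed the adjusted threshold, 2.7%, and 1 member did by its brightest probe. Sars2 was higher in Ts2Yah WT than in Ms3Yah WT, at the values given above (167.1 to 194.5 against 127.8 to 155.5), so that the groups did not overlap. The ratio of means was 1.23 and the log2 difference 0.29 ± 0.06, with limma adjusted p = 0.0091. It kept an adjusted p under 0.05 when any 1 of the 11 mice was left out (0.0097 to 0.029), but had 0.053 after median scaling. Ts2Yah Dup mice, at a mean of 158.2, lay between both diploid groups, and since the Ts2Yah WT mice enter both comparisons, the lower Sars2 level in Ts2Yah Dup and the higher level in Ts2Yah WT are not independent.

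Iars, for isoleucine, came next. It read 679.3, 725.7, 738.3, 712.1 and 650.6 in Ts2Yah WT and from 434.5 over 581.9 to 655.6 in Ms3Yah WT, with groups that overlapped by 1 mouse of Ts2Yah WT. Its brightest probe had 0.32 ± 0.10 with adjusted p = 0.090, and its second probe, also detected on all arrays, had 0.43 with adjusted p = 0.0022. Cars had a lower mean in Ts2Yah WT, at -0.22 ± 0.07 with adjusted p = 0.12, with signals of 99.8 to 131.7 against 127.9 to 143.4. Lars and Lars2 had differences of 0.20 ± 0.08 and 0.45 ± 0.18, with adjusted p = 0.21 and 0.19, and Mars2 had 0.14 ± 0.06 with adjusted p = 0.23. All overlapped between groups. Counted over the sets, 4 cytosolic members were higher and 2 lower at an unadjusted p under 0.05, and 3 mitochondrial members higher and 0 lower, beside 8.89% of probes higher and 7.67% lower. Of 10749 genes detected in any group, 1480 were higher and 1403 lower at that p. The medians were 0.09 for the 19 cytosolic and 0.04 for the 16 mitochondrial members, beside 0.003 over all 19039 genes.

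In the same comparison Aimp1, a scaffold of the multisynthetase complex, was higher in Ts2Yah WT, at 2286 to 2743 against 2008 to 2250 and 0.25 ± 0.06 with limma adjusted p = 0.021. This p lay above 0.05 when Ms3Yah WT mouse 37094 or any of the Ts2Yah WT mice 34561, 34731 and 34925 was left out, at up to 0.064, and was 0.15 after median scaling. Gfm1 was higher at 0.32 ± 0.09 with adjusted p = 0.048, which was lost without any 1 of the 11 mice, after median scaling (0.22) and with neqc (0.057). Trnt1, which adds the CCA end that tRNAs need for charging, was higher at 0.20 ± 0.05 with adjusted p = 0.047, lost in 9 of 11 such fits (in all except those without Ms3Yah WT mice 37146 or 37041), after median scaling (0.22) and with neqc (0.055). Asns, the asparagine synthetase that Atf4 induces, was lower at -0.79 ± 0.20 with adjusted p = 0.036, lost in 7 of 11 (in all except those without Ms3Yah WT mice 37146 or 37041 or Ts2Yah WT mice 34561 or 34731) and after median scaling (0.14). Markers of other cells moved with this contrast, in both directions. Adipocyte markers (3 of 3 lower, summed signals of 433 to 1593 in Ts2Yah WT against 726 to 5251 in Ms3Yah WT) and macrophage markers (4 of 4 lower, 500 to 760 against 597 to 1114) lay below 0, with an unadjusted limma p under 0.05 for 3 of 3 and 3 of 4, and all 7 were detected on at least 12 of 23 arrays. Interferon response markers were 4 of 4 lower, with an unadjusted limma p under 0.05 for 1, and the 2 undetected lymphocyte markers were lower. Endothelial markers lay 2 above and 2 below 0, and 1 of them was higher with limma adjusted p = 0.047. The 1 Schwann cell marker with a probe, Mbp, was higher at 0.55, with limma adjusted p = 0.23. The part of these cells in the differences of Sars2, Iars and Aimp1 was not tested.

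**Figure D5:**
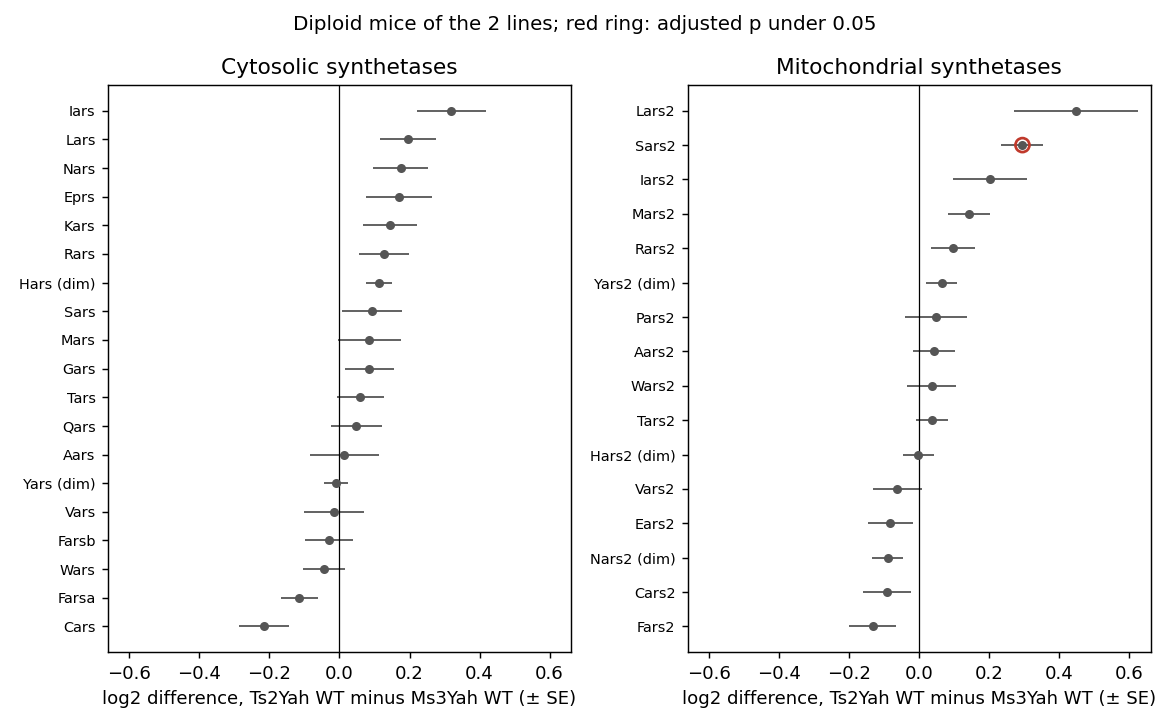
Log2 difference between diploid mice of the lines, Ts2Yah WT minus Ms3Yah WT (x axis, ± standard error), for each cytosolic and mitochondrial synthetase (y axis, brightest probe). The red ring marks Sars2, the 1 member with adjusted p under 0.05.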

How the data were processed

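Expression was read on 23 Illumina MouseWG-6 v2.0 arrays, each hybridised with gastrocnemius RNA of 1 mouse. The deposited raw signals are intensity values that were neither background-subtracted nor normalised between arrays, with a detection p-value per probe as the authors deposited it (software not given in the sources used here). The deposited series matrix holds intensity values after background subtraction by an unstated method, on a linear scale with column medians of 3.81 to 3.85. The authors had set aside 1 further diploid mouse after a principal component analysis, which is not analysed here.

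Raw signals were quantile normalised over all arrays and log2 transformed. Probes above the 35th percentile (89.8) on at least 1 array of a line were tested with lmFit and eBayes of limma 3.58.1 (R 4.3.3), each line apart, and contrasts between lines in 1 fit of 4 groups, with Benjamini-Hochberg adjustment. In simulated data, the fit recovered 58% (Ts2Yah line) and 62% (Ms3Yah line) of changes of log2 0.5. For changes of log2 1 it recovered 93% and 93.5%. Of the probes called in these runs, 0.85% to 8.4% were false. The changed probes were drawn only from those of higher mean signal, and several members, Sars2 and Wars2 among them, were dimmer than all of these. The shares recovered therefore do not describe such members. Smaller changes were not simulated, and the members differed by less than 0.5 in both lines. Of 45281 probes, 34885 carry 1 gene in the platform annotation, 18 several and 10378 none. Sets were described by counts and medians. Members and lists were chosen with earlier results of these data known. Values per mouse are given for the 3 detected members of each class with the smallest p per comparison, and related genes are named by p. Brightest and dimmest detected members were added, and Lars2 in the Ms3Yah line, Nars2 and second probes were chosen after their values were seen. Alternatives were median scaling, neqc, the series matrix, other filters, an Xist term, the methods' t-test, 1 joint fit, means over probes and leaving out each mouse. The number of arrays per group, 5 or 6, limits the precision. Some promoter matches are not reported here.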

Additional observations from a re-analysis of the deposited data

Results flagged for a closer look

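Within groups, 1 mouse stood apart from the rest by Dixon's ratio of gap to range in 7 of 64 groups looked at (16 members in 4 groups), and chance alone gives about 1 in 20. The Sars2 signal of the lowest Ts2Yah Dup mouse was 138.5, with the next at 156.9. The lowest Ts2Yah Dup mouse for Cars2 read 243.3, with the next at 256.9. For Wars2, the lowest Ms3Yah Del mouse read 137 (next 154.6) and the highest Ms3Yah WT mouse 154.7 (next 138.5), the 2 mice through which those groups overlapped. For Aars, the lowest Ts2Yah Dup mouse read 741.3 (next 955.5). For Mars2, the lowest Ms3Yah Del mouse read 123.8 (next 141.4) and the lowest Ts2Yah Dup mouse 125.1 (next 145.3).

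Among the synthetases and the 5 interval genes read, the effect differed between the lines, by the test of that difference, for 3 interval genes and no synthetase. Over all genes, 6 passed this test. The log2 difference of the effects was 0.99 for Atp5j, 0.841 for App and 0.359 for Mrpl39, a protein of the mitochondrial ribosome, with limma adjusted p = 7.9e-07, 0.00074 and 0.036. That of Mrpl39 was above 0.05 in 14 of 23 fits that left out 1 mouse, at up to 0.10. After median scaling those of Mrpl39 and App were 0.11 and 0.28.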

How the results depend on the processing

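The count of probes past the adjusted threshold was 2 for Ts2Yah Dup and became 0 under median scaling, neqc, the series matrix values, a term for Xist, the methods' t-test and 1 fit of 4 groups. For Ms3Yah Del it was 8 and became 4 under median scaling, for the difference between lines 12 and 6, and for the diploid groups 1219 and 286. The highest counts under other settings were 12 for Ms3Yah Del (1 fit of 4 groups), and 17 and 1563 for the difference between lines and the diploid groups (detection filter). Leaving out 1 mouse gave 0 to 2, 6 to 9, 10 to 19 and 672 to 1313 probes. The count of 19 came without Ms3Yah Del mouse 37148. The count of 672 came without Ms3Yah WT mouse 37094 or Ts2Yah WT mouse 34925, and 785 and 782 came without Ts2Yah WT mice 34723 and 34923. The mitochondrial median of the difference between lines went from -0.06 to -0.20 with the series matrix values, where 9 of the 16 members had a value, so that the medians are over different members. The cause of the other changes was not tested. No paired analysis was possible because replicates are mouse numbers that the groups do not share.

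The log2 difference of Sars2 in Ts2Yah Dup lay between -0.21 and -0.15 when 1 mouse was left out and between -0.41 and -0.19 under the other settings, below 0 in each and never past the adjusted threshold. Mitochondrial medians ranged from -0.11 to -0.02 in Ts2Yah Dup and from 0.000 to 0.06 in Ms3Yah Del. The methods' t-test gave 2348 and 2291 probes at its threshold in the Ts2Yah and Ms3Yah lines and 0 and 6 after Benjamini-Hochberg adjustment. Signals of Hars, Yars, Hars2, Nars2 and Yars2 near background limit what their probes can show.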
